A study of Mus musculus with 14 samples.

Results

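The trimethylation of lysine 4 on histone H3 (H3K4me3) was compared between 2 deposited peak lists of LEPC, a mouse cell line, 1 from cells that overexpress miR-93-5p and 1 from control cells called scr. All peaks of both lists were taken, 16173 in miR-93-5p and 14595 in scr, which are 30768 of the 160448 peaks in the 6 histone mark lists of the series. Both cultures were of strain C57BL/6 after 3 passages, with no other allele or agent given, and the labels do not spell out the name LEPC or give a tissue. Of the 14 samples of the series, the RNA-seq libraries of the same conditions and the H3K27me3 and H3K9me3 lists are used beside the mark, and the input samples are not analysed here. Each condition had 1 H3K4me3 library, so there is no replicate error and no test. Every difference is one between 2 libraries, and the intervals given for shares and medians cover counting alone.

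H3K4me3 is written by the SET1 and MLL complexes and lies mostly at the starts of genes that are transcribed or held ready for transcription. It is favoured by CpG-rich promoters, where CXXC-domain proteins such as Cxxc1 bind unmethylated CpG, and broad stretches of it are known from genes of cell identity. MicroRNAs of the miR-17 family, to which miR-93-5p belongs, pair through their seed with target mRNAs and lower them.

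The mature microRNA is shown with its seed, bases 2 to 8 from the 5′ end, in capitals, from RefSeq (GRCm38.p6, chr5:138165574-138165596, minus strand).
mmu-miR-93-5p: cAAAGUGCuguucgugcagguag

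The promoters below belong to the highest-scoring peaks that 1 library alone had within 1 kb of a gene start, taken from the genes named further on that have 1 RefSeq promoter, 4 per library. Each window runs 5′ to 3′ over 300 bases, and each CpG is in capitals. They are examples picked by score and do not show the range of CpG content among the genes whose mark was listed in 1 library alone. Medians of the CpG ratio were taken over genes with a peak anywhere on the locus in 1 library alone. That class is not the one by gene start, and it leaves out Rnf128, whose locus had a peak in both libraries.
The genes Ifitm1 (chr7:140967826-140968125, plus strand), Rnf128 (chrX:139610370-139610669, plus strand), Cxcl15 (chr5:90794284-90794583, plus strand) and Fgb (chr3:83049814-83050113, minus strand) had a peak within 1 kb of the start in miR-93-5p alone. The coordinates are those of the windows in GRCm38.p6, while the peaks are of mm9, and whether a peak covers its window was not determined.
Ifitm1: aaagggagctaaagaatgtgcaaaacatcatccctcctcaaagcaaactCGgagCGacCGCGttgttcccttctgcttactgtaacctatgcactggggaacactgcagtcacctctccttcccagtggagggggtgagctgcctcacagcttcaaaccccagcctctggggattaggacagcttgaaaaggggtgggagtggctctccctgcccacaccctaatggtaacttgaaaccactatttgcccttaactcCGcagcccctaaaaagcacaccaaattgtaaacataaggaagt
Rnf128: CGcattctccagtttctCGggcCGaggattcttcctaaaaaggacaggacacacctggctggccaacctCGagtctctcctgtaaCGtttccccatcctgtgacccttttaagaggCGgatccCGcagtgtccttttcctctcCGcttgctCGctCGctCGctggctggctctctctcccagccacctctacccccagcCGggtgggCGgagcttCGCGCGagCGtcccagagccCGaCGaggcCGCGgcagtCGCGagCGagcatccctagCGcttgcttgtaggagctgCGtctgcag
Cxcl15: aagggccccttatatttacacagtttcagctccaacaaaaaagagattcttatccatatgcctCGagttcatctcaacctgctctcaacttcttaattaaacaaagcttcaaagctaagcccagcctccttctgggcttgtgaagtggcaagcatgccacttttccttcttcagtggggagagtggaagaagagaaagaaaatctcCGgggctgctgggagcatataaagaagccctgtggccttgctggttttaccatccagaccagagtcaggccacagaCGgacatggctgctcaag
Fgb: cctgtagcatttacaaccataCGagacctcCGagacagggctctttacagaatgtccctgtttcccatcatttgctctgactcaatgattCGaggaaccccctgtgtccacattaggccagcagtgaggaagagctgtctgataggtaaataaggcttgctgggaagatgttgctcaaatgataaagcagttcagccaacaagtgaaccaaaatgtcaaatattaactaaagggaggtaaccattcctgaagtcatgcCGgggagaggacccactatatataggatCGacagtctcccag
The genes Msx2 (chr13:53472731-53473030, minus strand), Hoxd9 (chr2:74697513-74697812, plus strand), Zc3h12b (chrX:95711428-95711727, plus strand) and Msx1 (chr5:37824536-37824835, minus strand) had one in scr alone.
Msx2: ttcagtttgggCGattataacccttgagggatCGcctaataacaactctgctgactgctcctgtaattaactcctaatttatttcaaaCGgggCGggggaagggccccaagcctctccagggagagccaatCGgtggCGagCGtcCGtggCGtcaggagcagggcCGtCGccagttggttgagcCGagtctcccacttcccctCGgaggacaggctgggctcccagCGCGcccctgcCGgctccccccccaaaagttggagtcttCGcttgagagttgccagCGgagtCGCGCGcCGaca
Hoxd9: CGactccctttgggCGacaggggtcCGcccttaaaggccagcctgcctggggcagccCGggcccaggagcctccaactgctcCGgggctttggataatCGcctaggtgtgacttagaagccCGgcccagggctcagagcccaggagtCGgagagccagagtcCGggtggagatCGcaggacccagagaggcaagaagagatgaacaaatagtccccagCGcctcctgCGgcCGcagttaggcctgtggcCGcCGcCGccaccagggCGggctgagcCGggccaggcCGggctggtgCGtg
Zc3h12b: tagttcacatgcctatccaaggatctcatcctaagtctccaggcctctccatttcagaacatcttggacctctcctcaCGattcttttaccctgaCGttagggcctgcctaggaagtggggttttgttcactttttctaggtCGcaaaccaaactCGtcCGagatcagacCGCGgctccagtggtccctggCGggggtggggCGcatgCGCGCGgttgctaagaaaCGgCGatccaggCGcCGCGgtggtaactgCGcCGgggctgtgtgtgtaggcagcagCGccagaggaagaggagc
Msx1: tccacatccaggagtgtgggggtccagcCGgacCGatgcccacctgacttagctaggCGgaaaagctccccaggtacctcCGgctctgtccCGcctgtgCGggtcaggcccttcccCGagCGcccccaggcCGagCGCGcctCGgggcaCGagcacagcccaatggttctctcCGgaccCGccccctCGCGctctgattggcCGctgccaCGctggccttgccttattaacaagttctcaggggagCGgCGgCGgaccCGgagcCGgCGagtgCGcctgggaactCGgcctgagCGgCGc
The windows of the 4 genes marked in miR-93-5p alone held 5, 26, 3 and 5 CpG in the order shown, and those of the 4 genes marked in scr alone held 22, 20, 20 and 29. Rnf128 thus stands with the CpG-rich windows, and the other 3 of miR-93-5p do not.

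The miR-93-5p list was longer and its typical peak a little narrower. The median width was 2274 bp (95% interval 2246 to 2306) in miR-93-5p and 2377 bp (2356 to 2401) in scr. Peaks narrower than 1 kb made up 14.1% of the miR-93-5p list and 10.7% of the scr list, while peaks over 5 kb numbered 802 in miR-93-5p and 664 in scr. By count, the miR-93-5p list of 16173 peaks thus held more narrow and more broad peaks than the scr list of 14595. The 95th percentile of width was 4986 bp in miR-93-5p and 4873 bp in scr. Together the peaks covered 39.97 Mb in miR-93-5p and 36.90 Mb in scr. With lists of the same length, keeping the highest-scoring 14595 peaks of miR-93-5p, its median width was 2434 bp, above that of scr.

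The score that the authors deposited for each peak reached 3100 or more for 8937 miR-93-5p peaks (55.3%) and 8798 scr peaks (60.3%). Because over 50% of each list sits at this upper end, the score ranks only the weaker peaks. The number of reads behind each list is not known, and scores are used within a library only.

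Of the miR-93-5p peaks, 13926 (86.1%, 85.6 to 86.6, exact binomial) overlapped an scr peak by at least 1 bp. Of the scr peaks, 13851 (94.9%, 94.5 to 95.3) overlapped a miR-93-5p peak. In bases, 34.5 Mb were marked in both, which is 86.2% of the length marked in miR-93-5p, 93.4% of that in scr and 81.3% of the length marked in either. The peaks of 1 list alone numbered 2247 in miR-93-5p and 744 in scr. With 14595 peaks in each list they numbered 1125 in miR-93-5p and 1135 in scr. Nearly all shared regions held 1 peak of each list, so lists of equal length must give nearly equal counts. These counts therefore cannot show whether list length accounts for the imbalance, which was not tested.

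Peaks of 1 list alone were narrow and weak. Their median width was 943 bp in miR-93-5p and 888 bp in scr, where overlapping peaks had medians of 2501 bp in miR-93-5p and 2447 bp in scr. A score below 100 was held by 65.1% of the miR-93-5p peaks alone and by 63.2% of the scr peaks alone. Every peak at the upper end of the score, 8937 of 8937 in miR-93-5p and 8798 of 8798 in scr, overlapped the other list. Among peaks scoring from 50 to below 100 within their library, 31.9% in miR-93-5p and 67.8% in scr overlapped the other list. The score classes are not matched between libraries and the scr peaks were set against the longer list, so these shares are not compared.

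**Figure D1:**
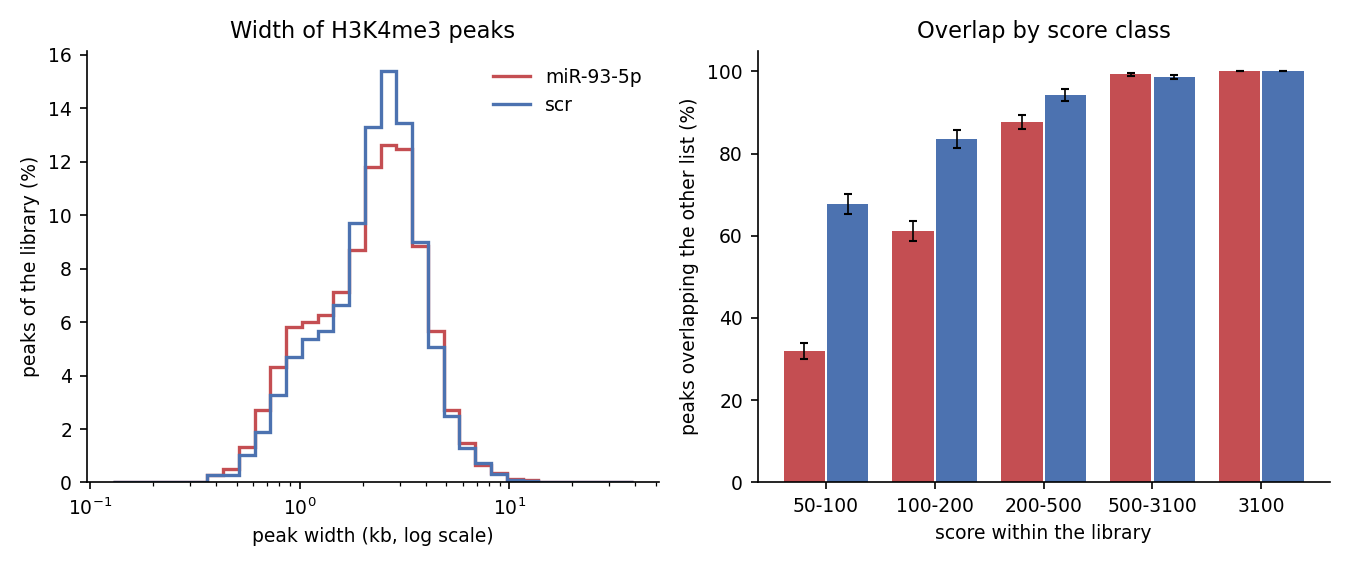
Left, share of the peaks of each library by peak width in kb on a log scale. Right, share of peaks that overlap the other list by score class within the library, with exact binomial 95% intervals for counting. The widths of both libraries centre near 2 to 3 kb, and the overlap reaches 100% at a score of 3100, while in the lowest class it is 31.9% in miR-93-5p and 67.8% in scr.

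Most of the mark lay at gene ends. A peak within 1 kb of either end of a listed mm9 gene locus was found for 60.7% of miR-93-5p peaks (60.0 to 61.5) and 66.8% of scr peaks (66.0 to 67.5). Among overlapping peaks the shares were 68.9% in miR-93-5p and 69.0% in scr. Among peaks of 1 list alone they were 10.1% (8.89 to 11.4) in miR-93-5p and 24.6% (21.5 to 27.9) in scr. With lists of the same length the order was the same, at 10.4% of the peaks alone in miR-93-5p and 21.7% in scr. Of the miR-93-5p peaks alone, 44.5% lay inside a gene away from its ends and 45.4% outside genes, against 30.8% and 44.6% of the scr peaks alone.

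**Figure D2:**
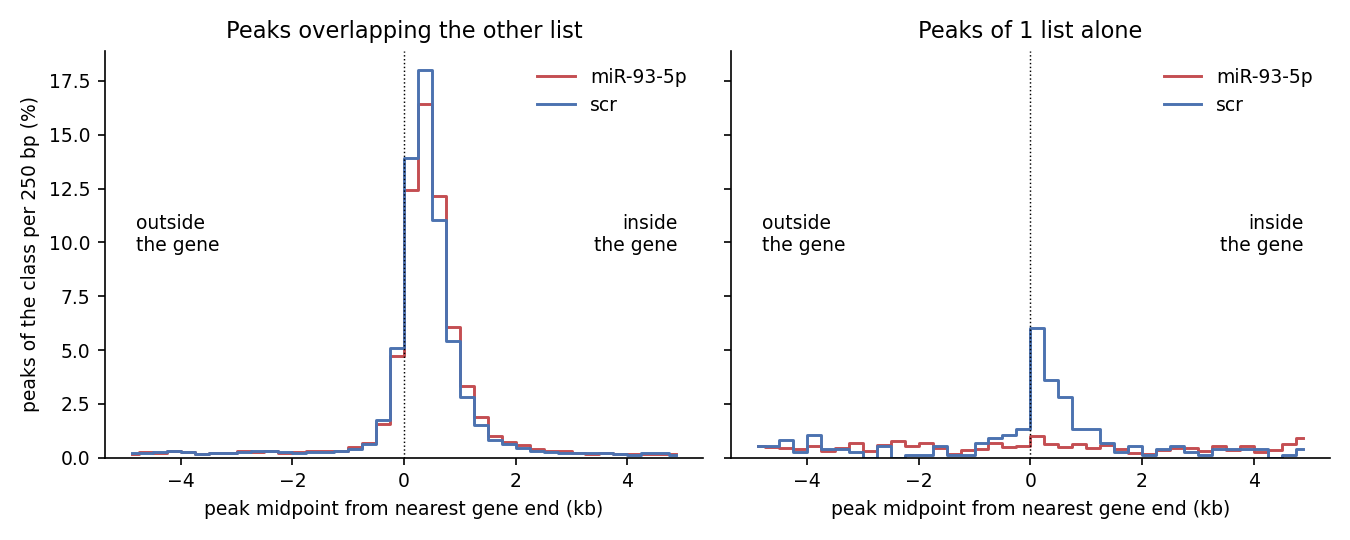
Share of peaks per 250 bp by the distance of the peak midpoint to the nearest end of a protein-coding gene in kb, positive inside the gene, for peaks that overlap the other list (left) and peaks of 1 list alone (right). Overlapping peaks form a crest just inside the gene end in both libraries. Among the peaks alone, miR-93-5p is nearly flat and scr keeps a smaller crest there.

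The gene loci carry no strand, and the strand of the RefSeq promoter of the same symbol gave the start of 14776 genes. A peak within 1 kb of the start was present for 7775 of these genes (52.6%) in miR-93-5p and 7824 (52.95%) in scr. The mark at gene starts was thus about equally frequent in both libraries although the miR-93-5p list was longer. At the far end of the gene it was present for 1031 genes (6.98%) in miR-93-5p and 966 (6.54%) in scr. At the start, 7712 genes had a peak in both, 63 in miR-93-5p alone (0.426%) and 112 in scr alone (0.758%). A peak that the other list lacked was held by 48 of the 63 and by 99 of the 112. At the far end the order was the opposite, with 103 genes in miR-93-5p alone and 38 in scr alone.

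Over whole loci, 10213 of 18449 protein-coding genes (55.4%) overlapped a peak in both libraries and 7812 (42.3%) in neither. A peak in miR-93-5p alone was found on 239 genes (1.30%) and in scr alone on 185 (1.00%). Of these, 225 in miR-93-5p and 169 in scr held a peak that the other list lacked, and the other genes were only reached by the edge of a peak present in both. With lists of the same length the counts were 123 in miR-93-5p alone and 254 in scr alone. Near either gene end the peak was in miR-93-5p alone for 126 genes (0.683%) and in scr alone for 150 (0.813%). Of these, 81 in miR-93-5p and 123 in scr held a peak that the other list lacked.

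The lists of marker genes give the background of the culture. Of 21 liver transcription factor genes, 17 had a peak in both libraries, but of 23 hepatocyte genes, among them Alb, Afp and Ttr, 20 had none in either. Of 14 biliary and progenitor genes 8 were marked in both, among them Krt19, Sox9, Lgr5 and Cdh1, and 6 in neither, among them Epcam and Krt7. Endothelial genes were marked in neither library for 9 of 10 members and leukocyte genes for 8 of 12, with Ptprc, Cdh5 and Kdr unmarked. The leukocyte genes Cd14 and Spi1 and the endothelial gene Pecam1 had a peak in both libraries. On Cd14 it was 5633 bp in miR-93-5p and 5251 bp in scr. The Pecam1 peak was weak, at a score of 61.68 in miR-93-5p and 50.49 in scr, and lay away from the locus ends. Of 19 mesenchymal and matrix genes 11 were marked in both, and of 6 simple epithelial keratin genes 4. Of 842 olfactory receptor genes, which are not expected to carry the mark outside the nose, 841 had no peak. All 36 ribosomal protein genes and all 17 abundant constitutive genes that were measured had a peak in both. The 2 leukocyte genes counted for miR-93-5p alone, Cd68 and Cd79a, were reached by the edge of a neighbouring peak that both libraries had.

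**Figure D3:**
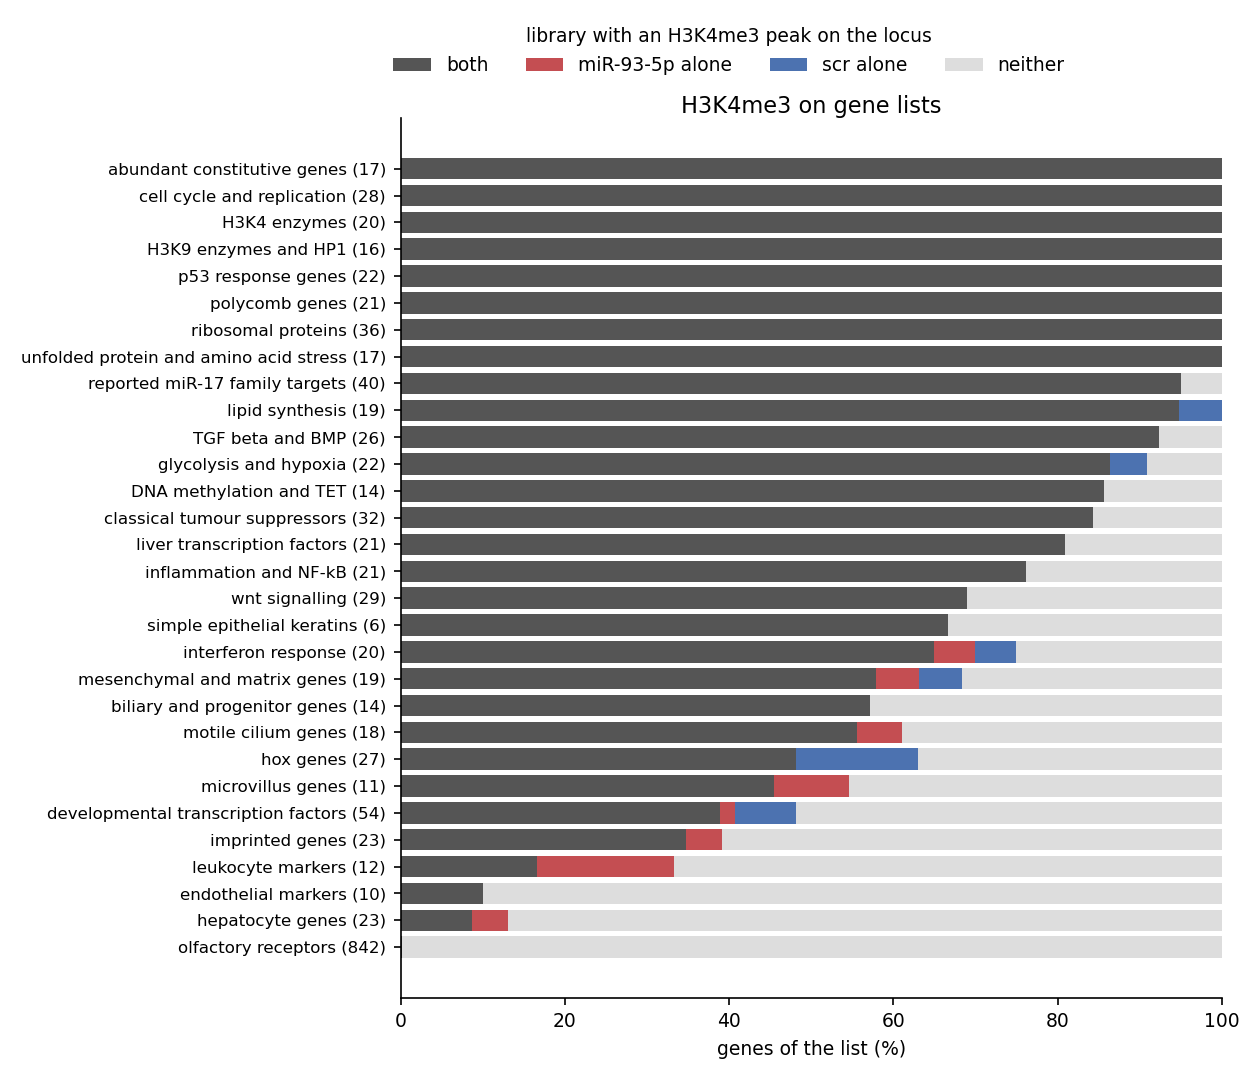
Share of the genes of each list, in percent, with an H3K4me3 peak on the locus in both libraries, in miR-93-5p alone, in scr alone or in neither; the number of measured genes is in parentheses. Constitutive and cell cycle lists are marked in both throughout, hepatocyte, endothelial and olfactory genes mostly in neither, and the Hox and developmental lists hold more genes in scr alone than in miR-93-5p alone.

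Promoter sequence differed by class. Genes were classed here by a peak anywhere on the locus, which need not lie at the promoter. Within 1 kb of the gene start, 63 genes had a peak in miR-93-5p alone and 112 in scr alone. The ratio of observed to expected CpG over the RefSeq promoter had a median of 0.78 for genes marked in both, 0.32 (0.28 to 0.41) for 172 genes in miR-93-5p alone, 0.55 (0.45 to 0.63) for 149 in scr alone and 0.26 for genes in neither, against 0.61 over all 14776 genes with a promoter. GGGCGG, the core of a GC box, was searched on both strands and was present in the promoters of 44.2% of genes in miR-93-5p alone, 55.0% in scr alone, 71.5% in both, 28.4% in neither and 52.9% of all genes. TATAAA on both strands was present for 13.4% of genes in miR-93-5p alone, 14.8% in scr alone, 8.11% in both, 21.0% in neither and 13.7% of all. With genes classed by a peak near a gene end, the share was 21.8% of 87 genes in miR-93-5p alone and 13.6% of 118 in scr alone. CCAAT on both strands was present for 37.2% in miR-93-5p alone, 40.9% in scr alone and 42.1% of all. Of the promoters printed above, GGGCGG occurs in those of Rnf128, Msx2, Hoxd9 and Msx1 and TATAAA in that of Cxcl15.

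The strongest peak found in miR-93-5p alone lay on Ifitm1, a gene of the interferon-induced antiviral membrane proteins. It spanned chr7:148153603-148158231 (mm9), 4629 bp, from 483 bp inside the gene start to 2507 bp past its far end, with a score of 2181.87, and 9469 peaks of the library scored higher. The scr list had no peak on the gene. Ifitm1 RNA, in fragments scaled for transcript length and library size (FPKM) with the authors' bounds, stood at 163 FPKM (154 to 172) in miR-93-5p and 5.41 FPKM (4.19 to 6.63) in scr, a log2 ratio of 4.68, so mark and RNA differed in the same direction. Neighbouring members of the cluster were marked in both: Ifitm2 over 4416 bp in miR-93-5p and 2898 bp in scr, and Ifitm3 over 2959 bp in miR-93-5p and 2867 bp in scr. A listed peak was thus missing in scr at Ifitm1 and not at these neighbours, and the lists do not show signal below their lowest score.

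The other high-scoring peaks of miR-93-5p alone had weaker scores, from 421.83 to 713.14 among the 10 highest after Ifitm1. Rnf128, a ubiquitin ligase gene, had a 3023 bp peak over its start in miR-93-5p alone and a second peak far inside the gene in both libraries, over 4420 bp in miR-93-5p and 3749 bp in scr. Its RNA was 74.7 FPKM in miR-93-5p and 111 FPKM in scr, so the extra peak did not go with more RNA. Cxcl15, a chemokine gene, had a 3715 bp peak over its start and no matched RNA locus in either library. Fgb, the fibrinogen beta chain gene, had a peak of 1570 bp at its start, with RNA at 1.82 FPKM in scr and no matched locus in miR-93-5p. C1qtnf6, a secreted protein gene, had a peak of 1589 bp likewise with RNA matched in scr alone, at 2.24 FPKM. The remaining ones lay on Pnkd and Tmbim1, which overlap, and on Zbtb7c, Speg, Adcy9 and Copz2, and all of these genes except Speg were marked elsewhere in both libraries.

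The strongest peak found in scr alone lay on Cdsn, and the 10 highest-scoring ones included those of 3 homeobox genes, Msx2, Hoxd9 and Msx1. Cdsn, which encodes corneodesmosin of the cornified epidermis, had a 2919 bp peak over its start in scr alone with a score of 2401.51, while a peak at its far end was in both, over 1797 bp in miR-93-5p and 1384 bp in scr. Msx2 had a 2501 bp peak with a score of 1973.47 and Msx1 a 2196 bp peak with a score of 1006.39, both over the start of the gene. These homeobox factors act in limb, tooth and skull development. Hoxd9, a homeobox gene of the posterior body axis, had a 1945 bp peak with a score of 1579.17. RNA of Msx2, Msx1 and Hoxd9 was matched in scr alone, at 1.63, 2.80 and 2.19 FPKM. Smagp, a small membrane glycoprotein gene of epithelia, had a 1426 bp peak and RNA at 8.79 FPKM in scr, with no matched locus in miR-93-5p. Mylip, a ubiquitin ligase gene for lipoprotein receptors, had a 1554 bp peak and 2.80 FPKM in scr, and Adgre5, an adhesion receptor gene, a 2025 bp peak and 11.9 FPKM in scr, both again without a matched locus in miR-93-5p. The other 3 were 3830406C13Rik, at 2.81 FPKM in scr, Zc3h12b, which had no matched RNA, and Hr, whose peak lay inside the gene and whose RNA was 1.91 FPKM in miR-93-5p and 2.82 FPKM in scr.

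Homeobox and other developmental genes were the lists with most members in scr alone. Of 27 Hox genes 13 were marked in both, 0 in miR-93-5p alone and 4 in scr alone (Hoxb3, Hoxb13, Hoxc4 and Hoxd9), against 1.00% of all genes in scr alone. Of 54 other developmental transcription factor genes 21 were marked in both, 1 in miR-93-5p alone (Pax5) and 4 in scr alone (Nkx2-2, Gata2, Msx1 and Msx2). Of these only Msx2, Hoxd9 and Msx1 scored above 1000. Hoxb13 had a 1254 bp peak with a score of 274.87, and Hoxc4 a 1236 bp peak with a score of 260.73. The Hoxb cluster held the widest peak of the comparison, 34927 bp in miR-93-5p over the stretch of Hoxb9 to Hoxb5. In scr the same stretch was listed as 2 peaks of 19281 and 14552 bp, so the lists differ there by a gap and not by extent.

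Where both lists had a peak, positions and widths were close. The lists formed 13702 shared regions, of which 13368 (97.6%) held 1 peak of each. The midpoints lay a median of 92.5 bp apart and each edge a median of 124 bp. The width was larger in miR-93-5p for 8391 regions (61.2%) and smaller for 5283, with a median log2 width ratio of 0.05 (0.04 to 0.05). A ratio of at least 1.5-fold was reached by 415 regions wider in miR-93-5p (3.03%) and 191 narrower (1.39%). Since the general ratio lies slightly above 0, single genes are read against it.

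**Figure D4:**
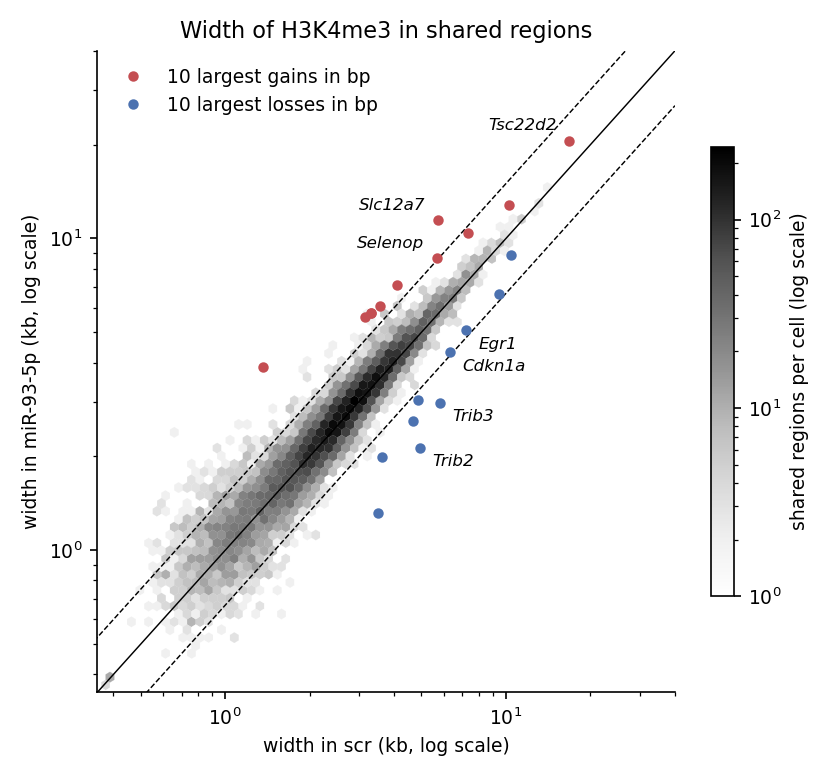
Width of H3K4me3 in 13702 shared regions, miR-93-5p against scr, in kb on log axes, as counts per hexagon. The solid line marks equal widths and the dashed lines a 1.5-fold difference; coloured points are the 10 regions on protein-coding genes with the largest gain and the 10 with the largest loss in bp. Most regions lie close to the line, and Slc12a7 above it and Trib3 and Trib2 below it stand past the 1.5-fold limit.

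The largest gain in bp was on Slc12a7, a potassium chloride cotransporter gene, where the peak inside the gene was 11458 bp in miR-93-5p and 5717 bp in scr. The low-coordinate edges were alike, at 73900363 in miR-93-5p and 73900426 in scr of chromosome 13, and the miR-93-5p peak ran further on the other side. Tsc22d2, a leucine zipper protein gene, had a peak of 20596 bp in miR-93-5p and 16755 bp in scr. Selenop, the plasma selenium carrier, had 8658 bp in miR-93-5p and 5673 bp in scr, and Cxcl12, the chemokine that binds Cxcr4, 6053 bp in miR-93-5p and 3573 bp in scr. Further large gains lay on Tmem63a, Amotl2, Myh9, Fhl2 and the overlapping pair Ncapd3 and Vps26b, from 2435 to 3032 bp.

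The largest loss was on Trib3, a pseudokinase gene of the amino acid stress response, with 2973 bp in miR-93-5p and 5807 bp in scr. The peaks reached 710 bp past the gene start in miR-93-5p and 724 bp in scr, and the scr peak ran further into the gene. Its RNA was nonetheless 9.28 FPKM in miR-93-5p and 2.99 FPKM in scr, a log2 ratio of 1.36. Its relative Trib2 had 2134 bp in miR-93-5p and 4946 bp in scr, and Cth, which makes cysteine from cystathionine, 1315 bp in miR-93-5p and 3511 bp in scr. Arhgef2, Egr1, Rps24, Uprt, Chka and Inhba followed, with differences of -2791 to -1630 bp.

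Cdkn1a, the cell cycle inhibitor p21 and a reported target of miR-93-5p, was also among the 10 largest losses. The peak was 4330 bp in miR-93-5p and 6334 bp in scr, both at the upper end of the score. Its near edge lay 1862 bp inside the gene in miR-93-5p and at -231 bp, before the gene start, in scr, while the far edge lay 6192 bp from the start in miR-93-5p and 6103 bp in scr. The start of the listed locus was therefore covered in scr alone, and Cdkn1a is 1 of the 112 genes with a peak at the start in scr alone. Its RNA was 46.2 FPKM (31.2 to 61.3) in miR-93-5p and 34.5 FPKM (33.0 to 36.1) in scr. The wide bounds in miR-93-5p correspond to 37.7 implied fragments, the number whose counting error would give those bounds, against 1993 in scr. Bounds also widen where isoforms share fragments, so the 37.7 can lie below the real number.

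The gene lists near the study's question were mostly marked in both libraries. Of 40 reported targets of the miR-17 family 38 had a peak in both, with a median log2 ratio of summed peak width of 0.04, against 0.05 over 10213 genes. A sum at least 1.5-fold larger in miR-93-5p was found for 3 of them, against 3.62% of all genes marked in both, namely E2f2 (5204 bp in miR-93-5p and 2690 bp in scr), a cell cycle transcription factor, Timp2 (6808 bp in miR-93-5p and 3945 bp in scr), an inhibitor of matrix proteases, and Crim1. These sums hold 1 or 2 further peaks in miR-93-5p, with scores from 63.01 to 189.22. The peak at the gene start itself was 3176 bp in miR-93-5p and 2690 bp in scr on E2f2, 5293 bp in miR-93-5p and 3945 bp in scr on Timp2, and 4678 bp in miR-93-5p and 4585 bp in scr on Crim1, each under 1.5-fold. At least 1.5-fold narrower was 1, Zbtb4, a repressor that binds methylated DNA, with 1030 bp in miR-93-5p and 2338 bp in scr, against 1.37% of all genes. Timp2 RNA was 209 FPKM in miR-93-5p and 59.3 FPKM in scr. Of 32 tumour suppressor genes 27 were marked in both and 5 in neither, among them Cdkn2a and Cdkn2b, and all 22 p53 response genes were marked in both. Cell cycle genes (28 of 28), H3K4 enzymes (20 of 20), Polycomb genes (21 of 21) and H3K9 enzymes with HP1 proteins (16 of 16) had peaks in both, with median log2 width ratios from 0.01 to 0.10. The apparent narrowing of Kdm6b, the H3K27 demethylase gene, from its own locus (5973 bp in miR-93-5p, 13339 bp in scr) was a split: over the whole region the widths were 13186 bp in miR-93-5p and 13339 bp in scr.

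Interferon and inflammation genes and stress genes showed single differences. Of 20 interferon response genes 13 were marked in both, Ifitm1 in miR-93-5p alone and Tap1, a peptide transporter gene of antigen presentation, in scr alone with a weak peak of 968 bp. Irf1, an interferon regulatory factor gene, had 5487 bp in miR-93-5p and 4082 bp in scr. Of 21 inflammation genes 16 were marked in both. Of those, 2 were at least 1.5-fold wider in miR-93-5p, against 3.62% of all genes marked in both. They were the chemokine gene Ccl7 (1888 bp in miR-93-5p, 1123 bp in scr) and the lipocalin gene Lcn2 (2373 bp in miR-93-5p, 1554 bp in scr). Their scores were low, at 230.9 in miR-93-5p and 74.68 in scr for Ccl7, and 280.97 and 145.06 for Lcn2. Cxcl2 was 2472 bp in miR-93-5p and 3545 bp in scr. All 17 unfolded protein and amino acid stress genes were marked in both with a median log2 width ratio of -0.05, and those named by their largest differences were narrower: Trib3, Asns (2240 bp in miR-93-5p, 3136 bp in scr), Ddit3 (3129 bp in miR-93-5p, 4057 bp in scr) and Chac1 (3583 bp in miR-93-5p, 4590 bp in scr). Chac1 RNA was 5.97 FPKM in miR-93-5p and 2.38 FPKM in scr, so that for Trib3 and Chac1 a narrower mark went with more RNA. Of 19 lipid synthesis genes 18 were marked in both and Scd1, the stearoyl-CoA desaturase gene, in scr alone, over 2895 bp at a score of 604.47. Its RNA was 25.6 FPKM in scr with no matched locus in miR-93-5p.

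The mark was set beside RNA for genes whose RNA locus could be matched in both libraries at a mean of at least 1 FPKM. Of 259 such genes at least 2-fold higher in miR-93-5p (3.01% of 8598), 246 (94.98%) had a peak in both libraries, 3 in miR-93-5p alone and 2 in scr alone. Of 336 at least 2-fold lower (3.91%), 308 (91.7%) had a peak in both, 5 in miR-93-5p alone and 1 in scr alone. Of all 8598 genes, 98.3% had a peak in both, 0.221% in miR-93-5p alone and 0.163% in scr alone, so the share marked in both was lower among the genes with RNA differences in either direction. Over 8450 genes marked in both, which share their libraries and are not independent, the log2 ratio of peak width and that of RNA had a Pearson correlation of 0.06 and a Spearman correlation of 0.07. The median log2 RNA ratio was 0.07 for 241 genes at least 1.5-fold wider, 0.03 for 8140 within that limit and -0.03 for 69 at least 1.5-fold narrower.

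The classes also differed in whether RNA was matched at all. Of the 126 genes with a peak near a gene end in miR-93-5p alone, 45 were only reached by a peak present in both lists. Of the 150 in scr alone, 27 were reached in this way, and the shares below include these genes. Of the 126 genes with a peak near a gene end in miR-93-5p alone, 7 (5.56%) had a matched RNA locus in miR-93-5p only and 12 (9.52%) in scr only. Of the 150 with a peak in scr alone, 5 (3.33%) had one in miR-93-5p only and 47 (31.3%) in scr only. Among genes marked in both the shares were 2.14% in miR-93-5p only and 3.18% in scr only. With lists of the same length, the genes in scr alone numbered 192, of which 8 (4.17%) were matched in miR-93-5p only and 53 (27.6%) in scr only. A mark in scr alone thus went with RNA matched in scr only more often than in the other classes. RNA matched in miR-93-5p only was also most frequent among genes marked in miR-93-5p alone, at 5.56%, though on 7 genes, and in that class RNA matched in scr only was the more frequent, at 9.52%. A gene is matched only where an assembled locus shares at least 0.5 of the joint length with the gene, so a partly covered gene counts as unmatched. Among those matched in scr only, with the RNA level in scr in FPKM, were Rtl8b at 26.5, Scd1 at 25.6, Adgre5 at 11.9 and Cbr3 at 9.71. The scr peak of Rtl8b was weak, at a score of 64.79.

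**Figure D5:**
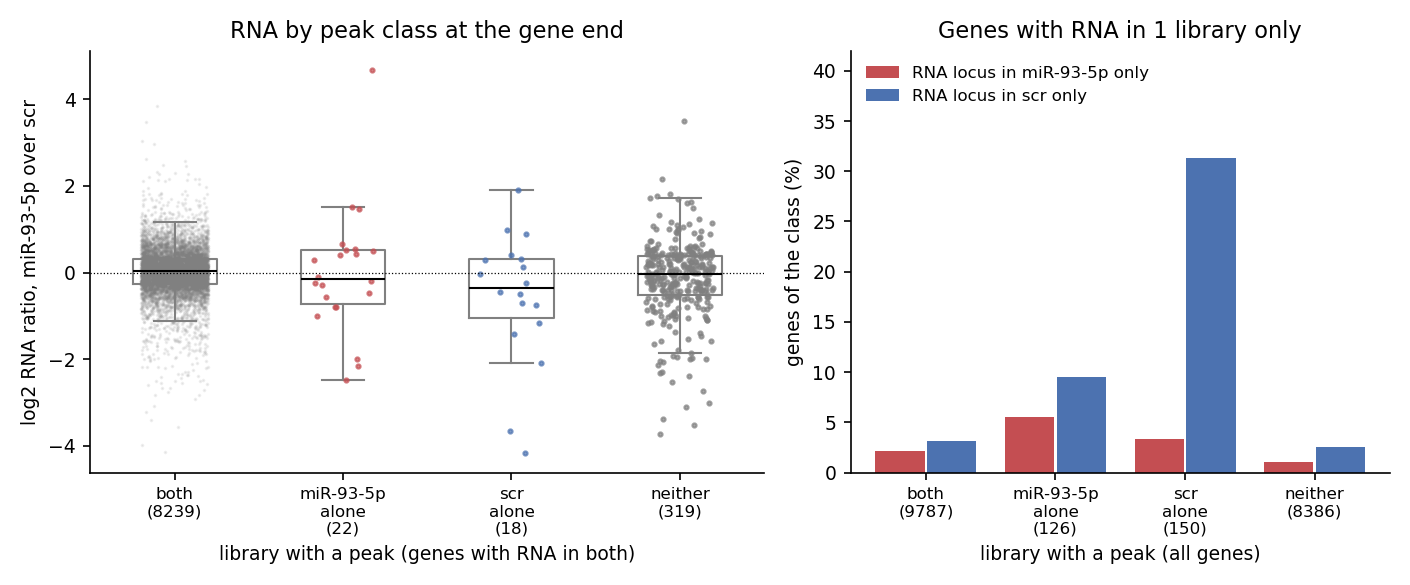
Left, log2 ratio of RNA, miR-93-5p over scr, for genes with RNA matched in both libraries, by the library with a peak within 1 kb of a gene end; boxes give quartiles and median, whiskers reach to 1.5 times the quartile range, and points are genes. Right, share of all genes of each class, in percent, whose RNA locus was matched in 1 library only. The medians of the left panel lie between -0.35 and 0.03, and on the right 31.3% of the genes marked in scr alone have RNA matched in scr only.

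The genes with a peak near an end in 1 library alone and RNA matched in both at a 2-fold difference went both ways. In miR-93-5p alone, Ifitm1, Ccn5 and Sprr1a had more RNA and Ddc, Lgals2 and Pklr less. Ccn5, a matricellular protein gene, stood at 17.2 FPKM in miR-93-5p and 5.41 FPKM in scr, with a weak peak at a score of 58.01. Sprr1a, a cornified envelope gene, stood at 267 FPKM in miR-93-5p and 96.1 FPKM in scr, but in implied fragments its log2 ratio was -0.25. Against the mark, Pklr, the pyruvate kinase gene of liver and red cells, stood at 3.45 FPKM in miR-93-5p and 16.8 FPKM in scr, and Lgals2, a galectin gene, at 19.7 FPKM in miR-93-5p and 91.2 FPKM in scr. The peaks of Ddc, Lgals2 and Pklr in miR-93-5p were 971 to 1396 bp wide, with low scores of 78.11, 105.48 and 151.89. In scr alone these were Cdh1, Ms4a4d, Fkbp5, Celsr1 and Ccdc80, with less RNA in miR-93-5p, and Ces2g, with more. Over the whole locus, however, Cdh1, Fkbp5, Celsr1 and Ccdc80 had a peak in both libraries. That of Fkbp5 was 2276 bp in miR-93-5p and 2342 bp in scr, both at the upper end of the score. Its class therefore rests on the 1 kb limit at the gene end. Ms4a4d, a tetraspan membrane protein gene, stood at 0.624 FPKM in miR-93-5p and 28.3 FPKM in scr, with a scr peak of 1203 bp. Its peak was weak, at a score of 82.5, as was that of Ces2g, at 55.97.

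Cdh1, the E-cadherin gene of epithelial cell contacts, carried 2 marks. The first, a peak of 1067 bp over the low-coordinate end of the locus, chr8:109127065-109128131 (mm9), with a score of 193.11, was in scr alone. The second, from 15987 bp inside the locus in miR-93-5p and 16097 bp in scr, was in both, over 2161 bp in miR-93-5p and 2003 bp in scr. Cdh1 RNA was 1.52 FPKM in miR-93-5p and 30.7 FPKM in scr, so of its 2 peaks the one at the locus end differed in the same direction as the RNA.

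Other genes with large RNA differences were marked in both libraries. Foxj1, the master factor of motile cilia, had 2 peaks in each library, 2148 and 2102 bp in miR-93-5p and 1637 and 1895 bp in scr, with RNA at 0.935 FPKM in miR-93-5p and 29.3 FPKM in scr. Hnf4a, a nuclear receptor of hepatocytes, had 2569 bp at its start in miR-93-5p and 2151 bp in scr, with RNA at 7.22 FPKM in miR-93-5p and 40.6 FPKM in scr. In both genes the mark was somewhat wider in the library with less RNA. Apob, the lipoprotein scaffold gene, had 1453 bp in miR-93-5p and 2151 bp in scr, with RNA at 2.54 FPKM in miR-93-5p and 29.1 FPKM in scr, and Krt20, an intestinal type keratin gene, 2085 bp in miR-93-5p and 2984 bp in scr, with RNA at 1.84 FPKM in miR-93-5p and 18.98 FPKM in scr. There the mark was narrower together with lower RNA, though for Apob the log2 RNA ratio was -3.09 in FPKM and -1.02 in implied fragments. Among genes with more RNA, Dclk1, a microtubule-linked kinase gene, had 2790 bp at its start in miR-93-5p and 1403 bp in scr, with RNA at 6.34 FPKM in miR-93-5p and 0.662 FPKM in scr. Scara5, a scavenger receptor gene, had 3773 bp in miR-93-5p and 3078 bp in scr, with RNA at 29.9 FPKM in miR-93-5p and 1.16 FPKM in scr.

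The repressive marks H3K27me3, written by Polycomb, and H3K9me3 of heterochromatin overlapped few H3K4me3 peaks. The H3K27me3 list of miR-93-5p overlapped 1.02% of the H3K4me3 peaks in miR-93-5p alone and 2.82% of those in scr alone, and the H3K27me3 list of scr 3.20% and 8.74%. Of the miR-93-5p peaks found in both libraries 0.977% overlapped H3K27me3 of miR-93-5p and 3.93% that of scr. H3K9me3 of miR-93-5p overlapped 2.05% of the peaks in miR-93-5p alone and 7.66% of those in scr alone, and H3K9me3 of scr 1.29% and 4.57%. For the miR-93-5p peaks found in both libraries the shares were 2.48% with H3K9me3 of miR-93-5p and 1.30% with that of scr. By every one of these 4 lists the H3K4me3 peaks in scr alone met a repressive mark more often than those in miR-93-5p alone, on 21 to 65 of 744 peaks. The Msx2 peak overlapped H3K27me3 in scr, and those of Msx1 and Hoxd9 in neither library.

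By chromosome, the miR-93-5p list was longer on all 20 chromosomes, by a ratio of 1.08 to 1.16. The share of peaks alone ranged from 11.8% to 16.7% in miR-93-5p and from 3.02% to 8.67% in scr, where the highest was the X chromosome.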

How the data were processed

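Chromatin of LEPC cells was immunoprecipitated with an antibody to H3K4me3, 1 library per condition. CASAVA 1.4, Bowtie and MACS are named for the reads and mm9 as the build, per the submitters' processing notes; settings and whether input was subtracted are not given in the sources used here. The authors deposited an interval and a score for each peak, from 50 upward. The RNA-seq tables hold FPKM per assembled locus with bounds, per the file headers, from TopHat2 and Cufflinks per the submitters' processing notes.

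Overlap was at least 1 bp. Regions are the union of both lists. Gene loci are the 35640 mm9 loci listed in the pulldown tables, of whose 35620 identifiers 31023 had a symbol in the gene name table, and 18449 protein-coding symbols with 1 locus were used (14 symbols with several loci were left out). RNA loci and genes were paired as mutual best overlaps sharing at least 0.5 of their joint length, and ratios are log2 of FPKM plus 1. Promoters of RefSeq (GRCm38.p6) were matched by symbol for 80.1% of the genes, and their strand gave gene starts. Shares have exact Clopper-Pearson 95% intervals. Members and gene lists were chosen with earlier results of these data known. The genes named were the 10 highest-scoring peaks of each list alone on coding genes, the 10 largest gains and losses in width (1 gain is not reported here), up to 4 members per list, those in 1 library alone first and then those with the largest width ratio, and Cdkn1a, Hnf4a, Foxj1, Cdh1, Ifitm1 and Scara5; Mcm7, the host gene of miR-93, is not analysed here. Genes named for a peak in 1 library alone together with RNA, Rtl8b, Cbr3, Ms4a4d, Ccn5, Sprr1a, Ddc, Lgals2 and Pklr among them, and Ifitm3 and the Hoxb stretch were chosen after their values were seen. The view by gene start was also added after the data were seen. The interval code was tested on simulated data and against bedtools. Python 3.11.15, pandas 2.3.3, numpy 2.4.6, scipy 1.17.1 and matplotlib 3.10.9 were used.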

Additional observations from a re-analysis of the deposited data

How the results depend on the processing

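Over 81 alternatives to 23 results, 53 stayed within the counting interval of the value (for counts, within 1.5 times) and 28 moved past it. None changed sign past that limit, but counts, widths, shares and CpG ratios of a library cannot change sign. The order of the 2 libraries did change for median width and for genes with a peak in 1 list alone. Such genes numbered 239 in miR-93-5p and 185 in scr by locus. By gene end they numbered 126 and 150, and with lists of the same length 123 and 254. With a score of at least 100, median widths were 2495 bp in miR-93-5p and 2506 bp in scr, the shares of overlapping peaks 90.3% and 96.0%, the shares at a gene end 68.3% and 72.4%, and the miR-93-5p peaks alone 1367. With the same number of peaks in both lists, the miR-93-5p median width was 2434 bp, above that of scr, the overlapping shares were 92.3% and 92.2%, the peaks alone 1125 in miR-93-5p and 1135 in scr, the miR-93-5p share at a gene end 66.1% and the genes in miR-93-5p alone 123. With gaps of up to 1 kb joined, the median widths were 2364 bp in miR-93-5p and 2423 bp in scr, and 87.0% of miR-93-5p peaks overlapped scr. With an overlap of at least 50% of the peak, the shares were 85.0% in miR-93-5p and 94.3% in scr. Within 5 kb of a gene end lay 69.99% of miR-93-5p and 74.6% of scr peaks, and with the peak midpoint within 1 kb 52.1% and 59.0%. By gene end, 126 genes were in miR-93-5p alone and the CpG ratio of genes in neither was 0.27; by gene start, 63 genes were in miR-93-5p alone and 112 in scr alone. In implied fragments the median log2 RNA ratio of genes marked in both was 0.00254, and that of 14 genes in scr alone 0.06 in place of -0.27, inside its interval. No paired analysis was possible because each condition has 1 H3K4me3 library. The lone libraries also leave no replicate to omit. The read depth behind the lists is unknown, and the score cannot rank the peaks at its upper end.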
